A study of Mus musculus with 6 samples.

Results

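The naive pluripotency network is the set of transcription factors and ES-cell-enriched genes that keeps mouse embryonic stem (ES) cells in the state of the early epiblast. The 32 genes described here were chosen by name, and each was read on the probe set with the highest mean signal over the arrays among the probe sets that name that gene alone. Of these, 31 had such a probe set, among 19938 genes in all, and Tdh, a threonine dehydrogenase gene, had none.

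The arrays compared HM1 cells, a mouse ES cell line, carrying a Prmt6 expression plasmid (Prmt6 overexpression, 3 arrays) with HM1 cells carrying the empty pCAGIP.puro vector (control, 3 arrays). Prmt6 encodes an arginine methyltransferase that modifies histones. Both groups grew in 15% serum with leukemia inhibitory factor (LIF) at 1000 U/ml, were transfected by lipofection and were held in puromycin at 1 ug/ml for 3 days, so each sample was a selected population and not a clone. Whether replicates were separate cultures is not stated in the labels, so p-values rest on the spread among these arrays, which may be purely technical.

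As background, Pou5f1 (Oct4), Sox2 and Nanog form the core of the network, and Oct4 and Sox2 bind DNA together beside many genes that ES cells express. Around them lies a circuit of factors held by LIF and by low ERK activity, among them Klf2, Klf4, Klf5, Esrrb, Tbx3 and Tfcp2l1. Nanog level varies from cell to cell in serum cultures, and cells that leave the naive state for the primed state turn on Otx2 and Fgf5.

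The promoters of Nanog, Sox2, Zfp42 and Tcl1 are shown. The first 3 are the members whose promoter window holds ATGCAAA, a shortened form of the octamer, the site bound by Oct4. Tcl1 had the largest rise among the members. Each line gives the 250 bases before the gene's start, read 5′ to 3′ on the strand of the gene, from RefSeq on GRCm38.p6. Capitals mark this shortened form, called the octamer from here on, or its reverse complement TTTGCAT. In Zfp42 they also mark the Klf motif GGGTGTG as its reverse complement CACACCC.
Nanog, chr6:122707315-122707564, plus strand: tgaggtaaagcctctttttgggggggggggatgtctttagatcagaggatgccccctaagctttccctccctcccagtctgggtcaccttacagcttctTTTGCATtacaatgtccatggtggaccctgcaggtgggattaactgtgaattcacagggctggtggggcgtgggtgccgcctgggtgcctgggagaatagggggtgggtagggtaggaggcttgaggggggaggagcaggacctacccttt
Sox2, chr3:34649745-34649994, plus strand: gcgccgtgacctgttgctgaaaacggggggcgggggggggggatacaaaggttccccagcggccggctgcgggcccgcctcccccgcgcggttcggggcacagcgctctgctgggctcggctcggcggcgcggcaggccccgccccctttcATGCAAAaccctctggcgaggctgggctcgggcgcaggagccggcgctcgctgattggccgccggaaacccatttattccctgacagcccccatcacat
Zfp42, chr8:43307010-43307259, minus strand: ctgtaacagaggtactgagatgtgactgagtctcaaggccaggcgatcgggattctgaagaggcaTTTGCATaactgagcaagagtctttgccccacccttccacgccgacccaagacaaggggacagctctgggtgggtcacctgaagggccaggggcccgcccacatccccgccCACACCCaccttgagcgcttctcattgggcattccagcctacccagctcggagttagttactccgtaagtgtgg
Tcl1, chr12:105222738-105222987, minus strand: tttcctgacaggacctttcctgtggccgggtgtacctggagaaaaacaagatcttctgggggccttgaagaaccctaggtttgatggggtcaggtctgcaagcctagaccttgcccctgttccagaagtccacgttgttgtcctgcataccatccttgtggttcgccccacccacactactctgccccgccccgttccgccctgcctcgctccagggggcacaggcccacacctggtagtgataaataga

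The promoter table held 23 windows of 300 bases for 19 of the 32 members. The octamer lay in 4 of these windows, on either strand, and in 4.63% of the 32851 windows of all genes. Those 4 windows belong to Nanog, where 2 overlapping windows share 1 copy, to Sox2 and to Zfp42. In the Nanog window shown, the octamer begins at position -151 from the start, in Sox2 at -99 and in Zfp42 at -185. The Klf motif lay in 3 member windows (Eras, Esrrb and Zfp42) and in 7.95% of all windows. The Sox motif CATTGTT lay in 1, a Pou5f1 window, and in 3.78% of all windows, and the orphan nuclear receptor motif AAGGTCA lay in 0 and in 4.72%. A match is a description of the letters and not a binding site. Only exact letters were searched, so a window without a match may still hold a variant. In Nanog, tacaatg, a variant of the Sox motif's reverse complement AACAATG, directly follows the octamer. Of the 3 genes with an octamer, Nanog and Sox2 fell and Zfp42 did not pass. Tdgf1, which also fell, had no match to any of these motifs, and neither had Tcl1, Tfcp2l1 and Nr0b1, which rose. Fbxo15 and Rif1, which fell, had no window. Whether a match goes with a change was not tested.

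Prmt6 itself was read by 1 probe set at log2 signals of 7.32, 7.40 and 7.33 in the overexpression arrays, against 6.84, 6.58 and 7.12 in the control arrays (0.50 ± 0.13, adjusted p = 0.0406, limma). Its call ended without any 1 array except control replicate 3 (adjusted p up to 0.119). Array medians ran from 5.54 to 5.59 in overexpression and from 5.60 to 5.62 in control, and Pearson correlations across probe sets (not independent replicates) were at least 0.986 among overexpression arrays and at least 0.991 among control arrays. Of the 31 members, 30 lay above the median of the gene means and Dppa3 lay below it.

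The question put to the network was how its members' RNA differs when the plasmid carries Prmt6 and when it is empty. In the network, Tcl1, Tfcp2l1 and Nr0b1 rose, while Fbxo15, Tdgf1, Rif1, Nanog and Sox2 fell. The largest changes were 1.67-fold for Tcl1 (95% interval 1.46 to 1.91) and 0.585-fold for Fbxo15 (0.518 to 0.660), and the other 6 lay between 0.786-fold and 1.29-fold. The remaining 23 genes, among them Pou5f1, Klf4, Esrrb and Zfp42, did not pass the test. In bulk RNA, fewer cells that express a gene and less of its RNA per cell cannot be told apart.

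By limma, fitted on all genes with Benjamini-Hochberg adjustment at 0.05, 3 members rose (9.68%, against 7.05% of all genes) and 5 fell (16.1%, against 3.25% of all genes). Taken in either direction, 8 of 31 were called (25.8%, against 10.3%). The members are mostly bright probe sets, and when the fit held only genes above the median mean signal, 10 of 30 members were called (33.3%) beside 30.2% of those 9971 genes. In that fit 4 members rose (13.3%, beside 19.4% of those genes) and 6 fell (20%, beside 10.8%). The arrays of the 2 groups did not overlap for 15 of 31 members, against 29.7% of all genes. With arrays centred on their medians 4 members rose and 4 fell, and under quantile normalization 2 rose and 6 fell. The median difference over the members was 0.0067 (log2, overexpression minus control) and their mean was -0.0012, of opposite sign, beside a median of 0 over all genes. Under quantile normalization the members' median was -0.044, beside 0.024 over all genes.

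**Figure D1:**
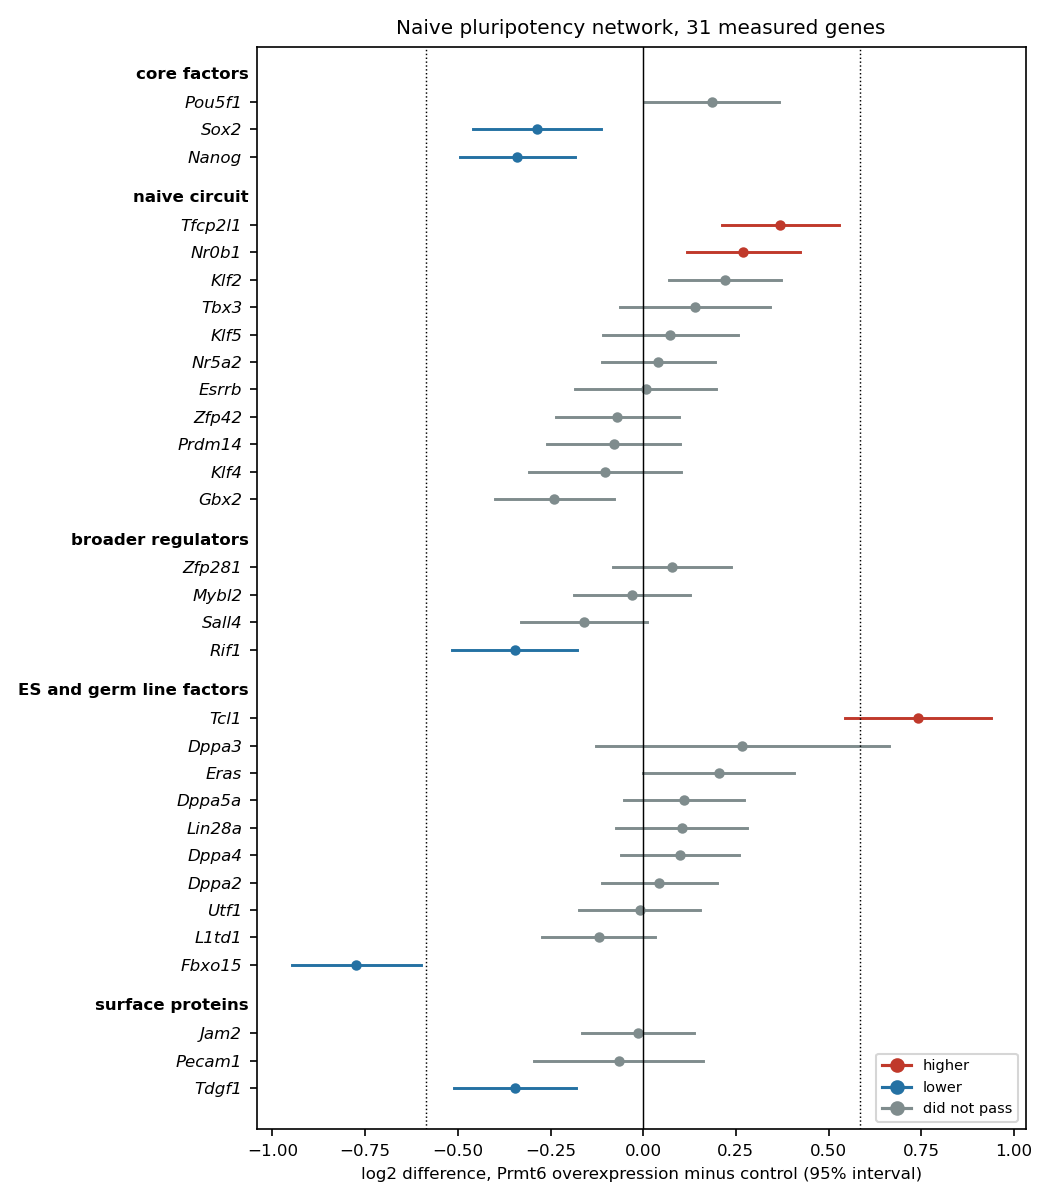
The log2 difference of each of the 31 measured members, Prmt6 overexpression minus control, as a point with its 95% interval, grouped by role, with dotted lines at a 1.5-fold change either way. Tcl1 (0.74) and Fbxo15 (-0.77) lie past those lines, and 28 of 31 intervals lie wholly between them.

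Of the core factors, 2 of 3 fell and 1 did not pass. Nanog, a homeodomain factor that protects ES cells from differentiation, had log2 signals of 10.39, 10.42 and 10.36 in the overexpression arrays, against 10.70, 10.71 and 10.78 in the control arrays. All 3 overexpression arrays lay below all 3 control arrays, and the level fell to 0.790-fold of control (-0.34 ± 0.068, adjusted p = 0.0153). Sox2, an HMG-box factor that partners Oct4, read 10.83, 10.83 and 10.67 in overexpression, against 11.09, 11.02 and 11.08 in control. It fell to 0.820-fold (-0.29 ± 0.076, adjusted p = 0.0485), again with no overlap, and overexpression replicate 3 was the lowest array.

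Pou5f1, which encodes the POU factor Oct4, stood on the other side of 0. Its log2 signals were 11.23, 11.32 and 11.41 in overexpression and 11.14, 11.20 and 11.06 in control. The overexpression arrays were all above the control arrays, but the difference of 0.19 ± 0.079 did not pass (adjusted p = 0.190), and its 95% interval ran from 0.0061 to 0.37. A fall of Pou5f1 like that of Nanog or Sox2 lies outside that interval.

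Of the 11 transcription factors of the naive circuit, 2 rose, none fell and 9 did not pass. Tfcp2l1, a grainyhead-family factor downstream of LIF and STAT3, read 8.28, 8.34 and 8.38 in overexpression, against 7.93, 8.0 and 7.96 in control. The groups were well apart, and the level rose 1.29-fold (0.37 ± 0.069, adjusted p = 0.0111). Nr0b1 (Dax1), an orphan nuclear receptor that can restrain Oct4, read 10.83, 10.86 and 10.85 in overexpression, against 10.55, 10.62 and 10.56 in control. It rose 1.21-fold (0.27 ± 0.067, adjusted p = 0.0375), with the overexpression arrays within 0.03 of each other.

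The 3 Krüppel-like factors, which can replace each other in ES cells, did not pass. Klf2 came closest, with 9.09, 9.03 and 9.07 in overexpression against 8.85, 8.84 and 8.84 in control (0.22 ± 0.066, adjusted p = 0.0745), and these groups did not overlap. Klf4 was at -0.10 ± 0.09 and Klf5 at 0.073 ± 0.08, with overlapping groups (adjusted p = 0.543 and 0.642). Their overexpression arrays were spread more widely, with SDs of 0.151 for Klf4 and 0.118 for Klf5 in overexpression, against 0.0416 and 0.00577 in control (n = 3 each). Over all genes the median SD was also higher in overexpression, at 0.115 against 0.0819, so a wider spread is not particular to these genes.

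Esrrb, an orphan receptor that holds the naive state, differed by 0.0067 ± 0.083 (adjusted p = 0.974), with a 95% interval from -0.18 to 0.20. Its sign turned in 5 of the 16 alternative analyses. Zfp42 (Rex1), the reporter gene most used for the naive state, was at -0.070 ± 0.073 (adjusted p = 0.624), also with overlapping groups. Gbx2, a homeobox factor induced by STAT3, lay lower in every overexpression array, with 7.66, 7.72 and 7.59 against 7.90, 7.87 and 7.92 in control, but did not pass (-0.24 ± 0.07, adjusted p = 0.0694). Tbx3, Nr5a2 and Prdm14 were at 0.14, 0.040 and -0.080, with overlapping groups and adjusted p of at least 0.389.

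**Figure D2:**
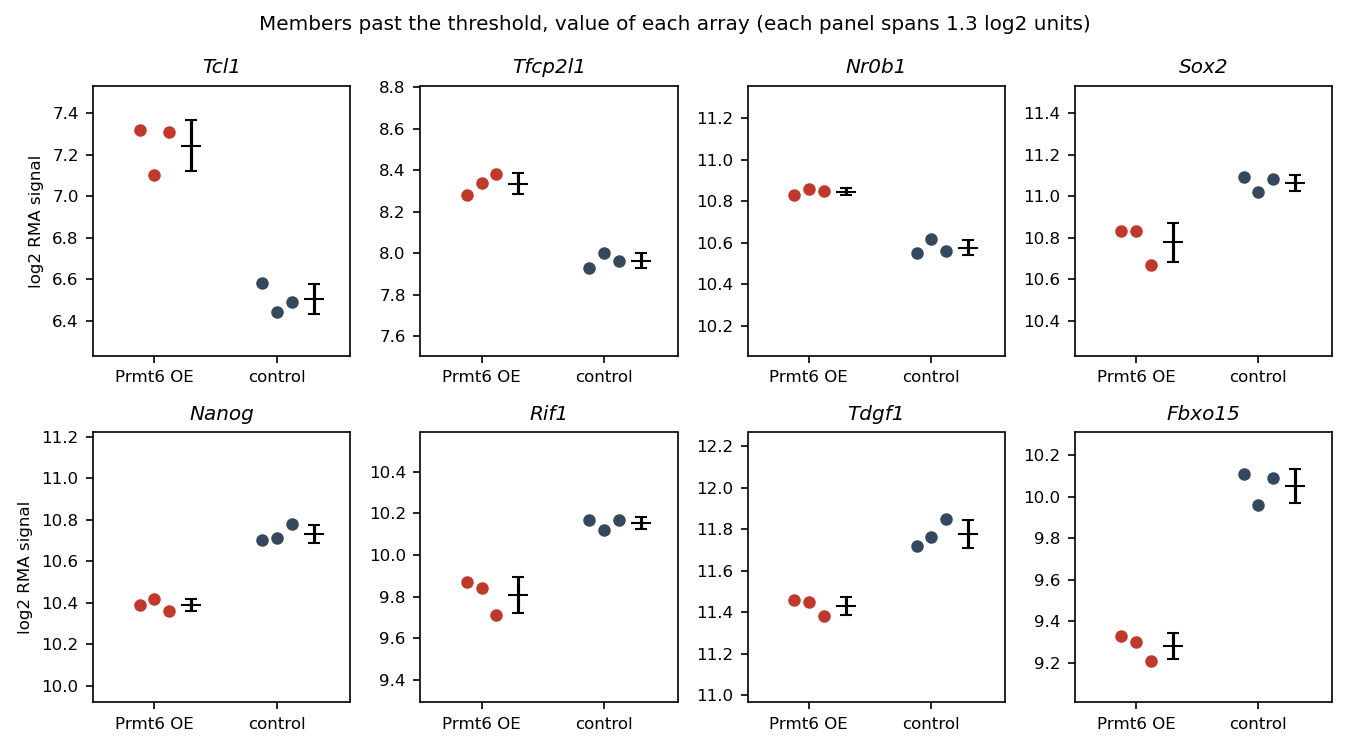
The log2 signal of each array (points) for the 8 members past the threshold, Prmt6 overexpression left and control right, with the mean and SD of each group as bars and every panel spanning the same number of log2 units. In all 8 panels the groups do not overlap, and the gap is widest for Tcl1 and Fbxo15.

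Among the 4 broader regulators, Rif1 fell and the other 3 did not pass. Rif1, a telomere-associated protein that also times DNA replication, read 9.87, 9.84 and 9.71 in overexpression, against 10.17, 10.12 and 10.17 in control (-0.35 ± 0.074, adjusted p = 0.0206). The groups did not overlap, and overexpression replicate 3 was the lowest. Sall4, a zinc finger partner of Oct4, was at -0.16 ± 0.075 (adjusted p = 0.235), with every overexpression array below every control array. Mybl2, a cell cycle transcription factor, was at -0.030 and Zfp281, a zinc finger factor of the exit from the naive state, at 0.077, with overlapping groups.

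The factors enriched in ES cells and germ line held the largest change in each direction, with 1 of 10 measured genes higher, 1 lower and 8 not passing. Tcl1, a coactivator of the kinase Akt, read 7.32, 7.10 and 7.31 in overexpression, against 6.58, 6.44 and 6.49 in control. It rose 1.67-fold (0.74 ± 0.086, adjusted p = 0.00101), and its lowest overexpression array stood 0.52 above its highest control array. Fbxo15, an F-box protein gene long used as a marker of undifferentiated cells and not needed for self-renewal, read 9.33, 9.30 and 9.21 in overexpression, against 10.11, 9.96 and 10.09 in control. It fell to 0.585-fold (-0.77 ± 0.076, adjusted p = 0.000404), with a gap of 0.63 between the groups.

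The Dppa genes did not pass on any of their probe sets. Dppa2 and Dppa4, partner proteins that act at the start of zygotic transcription, were at 0.043 and 0.10 on the probe sets used, and at -0.017 and -0.16 on a second probe set each, so the sign depended on the probe set. Dppa3 (Stella), a maternal factor that protects DNA methylation in the zygote, was at 0.27 ± 0.17 on its brighter probe set, the least precise value in the network, with a 95% interval from -0.13 to 0.66. Its control arrays read 5.28, 6.04 and 5.70 and enclosed all 3 overexpression arrays, at 6.00, 5.79 and 6.03. Dppa5a, an RNA-binding protein, was at 0.11 ± 0.07 (adjusted p = 0.392).

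Eras, a Ras-like protein that drives ES cell growth, was at 0.20 ± 0.089 (adjusted p = 0.203). Lin28a, which blocks let-7 maturation, was at 0.10 and L1td1, an RNA-binding protein derived from a LINE element, at -0.12, both with adjusted p of at least 0.319. Utf1, a chromatin factor of ES cells, was at -0.010 ± 0.072, with overlapping groups and a 95% interval from -0.17 to 0.15. None of these 4 had a 95% interval that reached a 1.5-fold change.

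Of the surface proteins, 1 of 3 fell. Tdgf1 (Cripto), the co-receptor of Nodal, read 11.46, 11.45 and 11.38 in overexpression, against 11.72, 11.76 and 11.85 in control. It fell to 0.786-fold (-0.35 ± 0.072, adjusted p = 0.0183), with no overlap between the groups. Pecam1, an adhesion molecule used to sort undifferentiated cells, was at -0.067 ± 0.1, and Jam2, a junctional adhesion molecule, at -0.013 ± 0.066, both with overlapping groups (adjusted p = 0.750 and 0.935).

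For 28 of 31 members (90.3%) the 95% interval lay wholly within a 1.5-fold change in either direction, as it did for 89.2% of all genes. The exceptions were Tcl1, Fbxo15 and Dppa3. At an unadjusted p under 0.05 there were 12 members, against 24.5% of all genes. A member that did not pass is therefore bounded to a small change in most cases and is not shown to be at the control level.

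The calls differed in whether they held with 1 array left out. Such fits have fewer arrays. Over all genes, falls numbered 280, 321 and 297 without control replicates 1, 2 and 3, against 647 with all arrays. With 1 array left out, the difference ran from -0.355 to -0.315 for Nanog and from -0.313 to -0.233 for Sox2. Tcl1 and Fbxo15 passed in all 16 alternative analyses, with adjusted p of at most 0.00716 and 0.00335 when any 1 array was left out. Tfcp2l1 lost its call without control replicate 1 (adjusted p = 0.0593) or 3 (0.0508), and Nanog without control replicate 1 (0.0564), 2 (0.0552) or 3 (0.0765). Tdgf1 lost it without any 1 control array or overexpression replicate 2 (0.0511 to 0.0864). Rif1 and Nr0b1 lost it without any 1 array except overexpression replicate 1 (0.0503 to 0.0855 for Rif1, 0.0720 to 0.143 for Nr0b1). Sox2 lost it without any 1 array (0.0549 to 0.163).

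Across those fits 1 member was called lower without control replicate 1, 2 or 3, 2 without overexpression replicate 2 and 3 without overexpression replicate 3, against 5 with all arrays. Members called higher numbered 1 without control replicate 1 or 3, against 3 with all arrays. Scaling ended 2 of the calls, that of Sox2 with arrays centred on medians (adjusted p = 0.111) and that of Nr0b1 under quantile normalization (0.0801). The sign of each of the 8 differences was the same in all 16 alternatives.

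**Figure D3:**
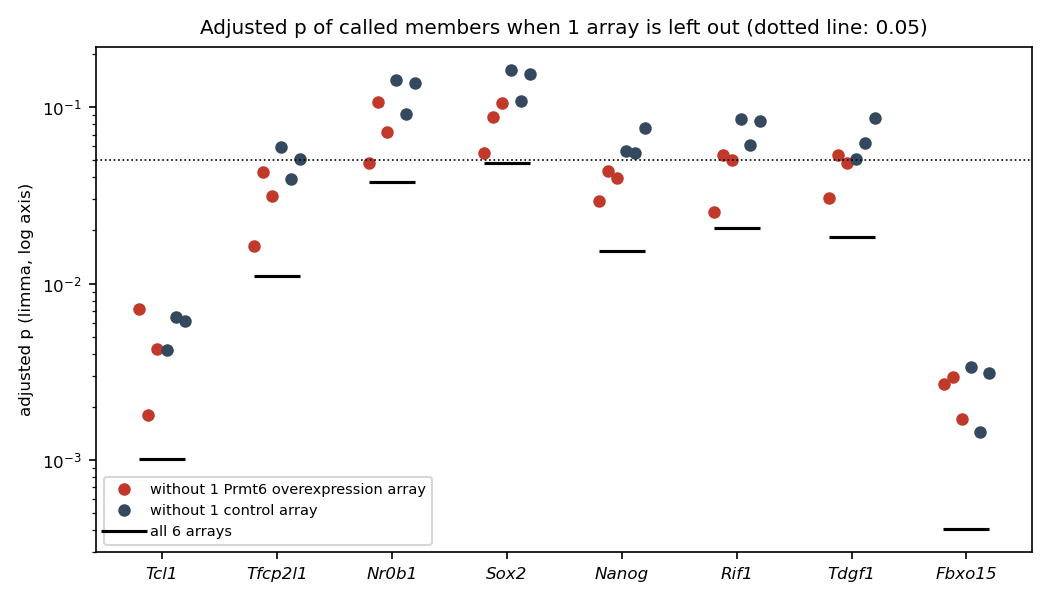
Adjusted p (limma, log axis) of the 8 members past the threshold with all 6 arrays (black bars) and with 1 Prmt6 overexpression array (red) or 1 control array (dark blue) left out, with a dotted line at 0.05. Tcl1 and Fbxo15 stay under the line in every fit, whereas Sox2 lies above it in each of its 6.

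Other genes of the ES cell network, from a list of 37 with 32 measured, showed 4 rises, 3 falls and 25 that did not pass. Over all genes, 7.05% rose and 3.25% fell. The list's median difference was -0.12. The arrays did not overlap, with overexpression lower, for 18 of the 32, beside 12.7% of all genes. All 32 lay above the median mean signal, and the share without overlap among such bright genes was not computed. In the fit on genes above that median, 5 of the list rose and 10 fell, beside 19.4% and 10.8% of those genes. Lefty2, a Nodal antagonist, rose by 0.65 ± 0.11, and Etv4, an ETS factor downstream of FGF and ERK, by 0.51 ± 0.081. Their relatives Lefty1, at -0.090 ± 0.069, and Etv5, at -0.26 ± 0.079, did not pass (adjusted p = 0.486 and 0.0749, limma). The adhesion protein gene Cdh1 rose by 0.45 ± 0.071 and Myc by 0.43 ± 0.076. Mycn, the other Myc gene of ES cells, fell by 0.43 (SE 0.067), with 10.08, 10.10 and 10.05 in overexpression against 10.51, 10.54 and 10.47 in control. Myc read 8.81, 8.89 and 8.94 in overexpression and 8.36, 8.51 and 8.48 in control, so the 2 Myc genes moved in opposite directions.

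Dnmt3l, a cofactor of de novo DNA methylation, fell by 0.34, and Tet1, which oxidises 5-methylcytosine, fell by 0.32. Dnmt3l lost its call when any 1 control array or overexpression replicate 2 was left out (adjusted p = 0.0593 to 0.0882), and Tet1 when any 1 array except overexpression replicate 1 was (0.0540 to 0.102). The ligand gene Nodal was at -0.26 ± 0.071 and Fgf4 at 0.053 ± 0.072, without passing (adjusted p = 0.0532 and 0.717). Falls on this list numbered 7 with genes below the 30th percentile left out, 10 with those below the median left out, 9 under quantile normalization, 5 with array weights and 13 with a trended and robust variance prior. They numbered 1 without control replicate 1, 2 or 3.

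Of 14 genes of LIF and STAT3 signalling, which feed the naive circuit, Jak2 rose and 13 did not pass, beside 10.3% of all genes called. Jak2, a kinase of cytokine receptors, read 6.83, 6.79 and 6.50 in overexpression, against 5.75, 5.74 and 5.69 in control, a 1.97-fold rise (0.98 ± 0.097, adjusted p = 0.000414). Stat3 differed by -0.0033 ± 0.084 (adjusted p = 0.986), and the STAT3 target Socs3, at -0.21 ± 0.073 (0.120), and the receptor gene Lifr, at -0.31 ± 0.091 (0.0708), did not pass. The list's median of 0.018 was -0.0072 under quantile normalization, and with the trended and robust prior 4 of its genes rose and 3 fell.

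On the primed epiblast list 15 genes were measured, of which 4 fell, 1 rose and 10 did not pass, with a median of -0.17. Over all genes, 3.25% fell and 7.05% rose. Otx2, which directs the move to the primed state, read 7.26, 7.23 and 7.32 in overexpression, against 7.73, 7.79 and 7.67 in control (-0.46 ± 0.071, adjusted p = 0.00457). Wnt8a fell by 0.56, the basic helix-loop-helix factor gene Tcf15 by 0.38 and the de novo methyltransferase gene Dnmt3b by 0.30. The tight junction gene Cldn6, which many early epithelia express, rose by 1.25. Fgf5, the usual primed marker, was at 0.017 ± 0.071 (adjusted p = 0.922). Wnt8a lost its call without control replicate 3 (adjusted p = 0.0540) and Tcf15 without control replicate 2 (0.0566). Dnmt3b lost it when any 1 array except overexpression replicate 1 was left out (0.102 to 0.151) and when arrays were centred (0.101). Falls on the list numbered 2 without control replicate 2 or 3.

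**Figure D4:**
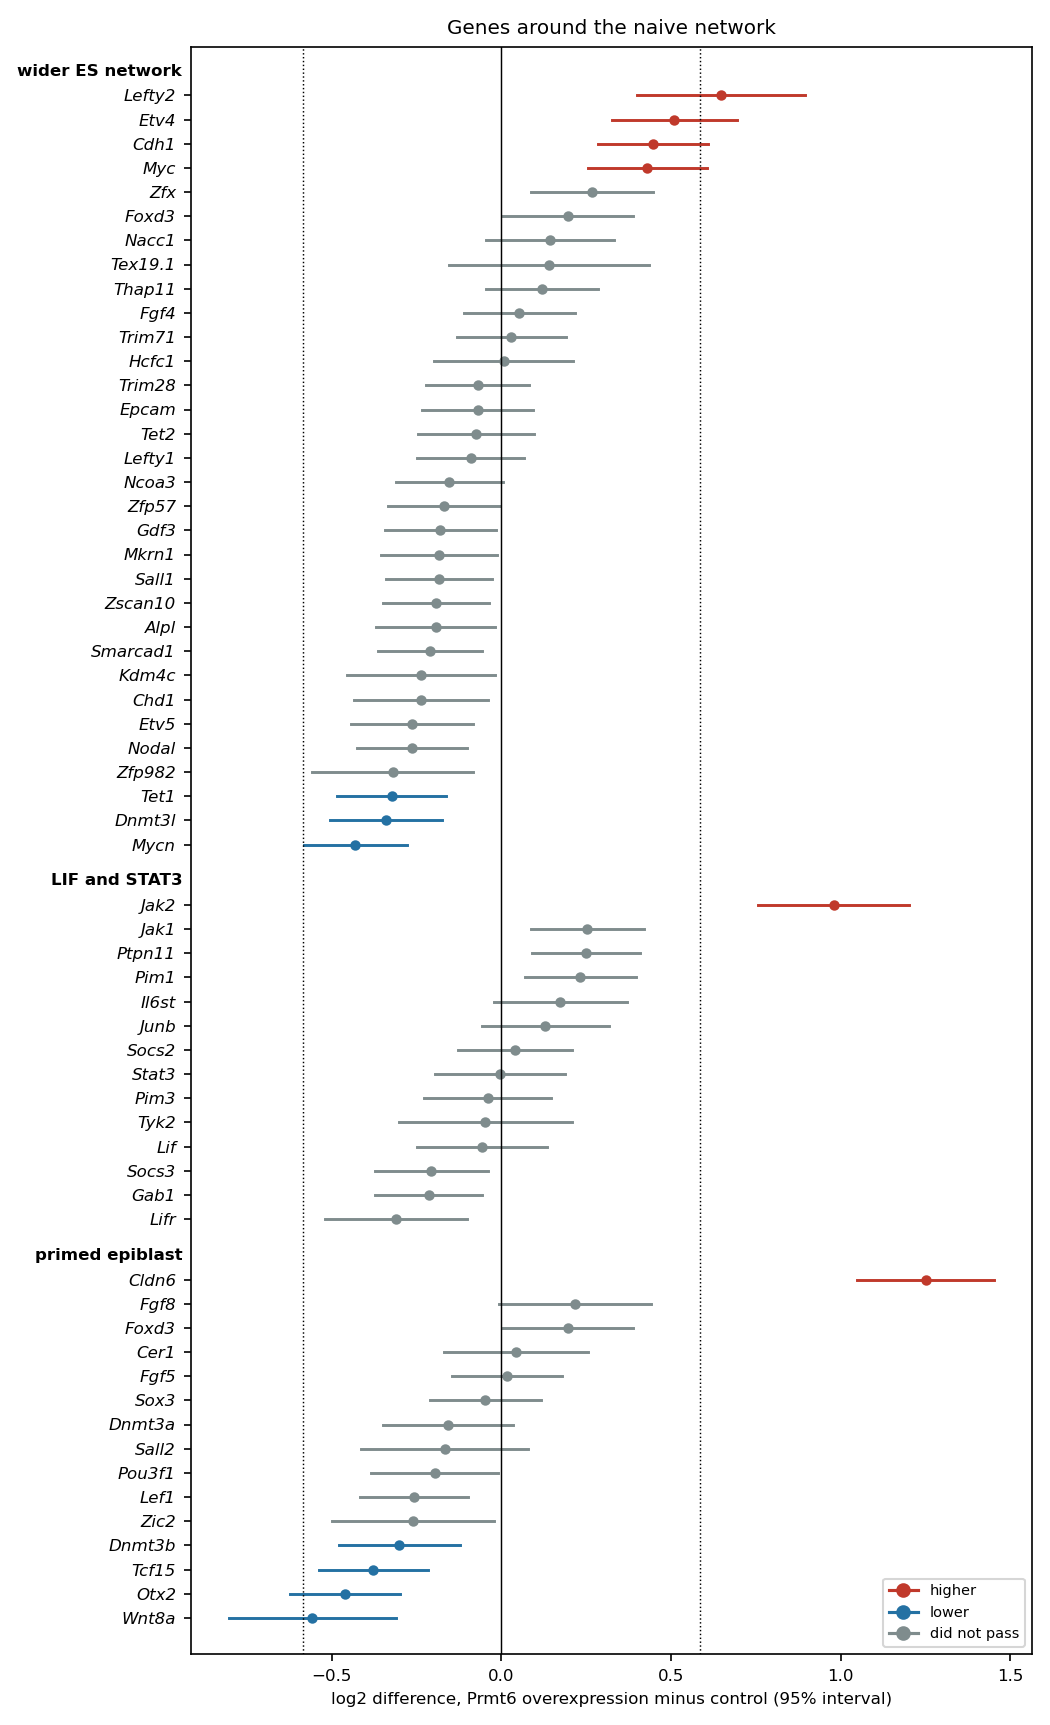
The log2 difference, Prmt6 overexpression minus control, with its 95% interval for the wider ES cell network (32 genes), LIF and STAT3 signalling (14) and the primed epiblast list (15), Foxd3 standing on the first and last of these, with dotted lines at a 1.5-fold change. Cldn6 (1.25), Jak2 (0.98) and Lefty2 (0.65) lie past the line on the right, and the differences past the threshold on the left run from -0.30 for Dnmt3b to -0.56 for Wnt8a.

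Markers of other cell types also moved. For scale, 7.05% of all genes rose and 3.25% fell. On the fibroblast list 11 of 19 genes rose and none fell, and its mean log2 signal was 6.41 to 6.48 in overexpression, against 5.57 to 5.63 in control. Acta2, smooth muscle actin (4.53), Tagln (3.29), the intermediate filament gene Vim (1.62) and Lox, which crosslinks collagen (1.51), led it. The collagen gene Col1a1 rose by 1.34 ± 0.12, while Thy1 was at 0.043 and Fap at -0.023 without passing. There were 6 rises without control replicate 1 and 7 when control replicate 3 or overexpression replicate 3 was left out. Of the endoderm list, 9 of 17 measured genes rose and none fell, with a mean of 6.23 to 6.33 against 5.78 to 5.83. Of the trophoblast list, 8 of 17 rose and none fell, with a mean of 6.66 to 6.74 against 5.79 to 5.85.

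The largest rises on the endoderm list were those of the basement membrane collagens Col4a2 (1.497) and Col4a1 (1.493), the matrix protein gene Sparc (1.28), the uptake receptor gene Cubn (0.94) and Dab2 (0.77). Its factor gene Gata6 rose by 0.43, and Foxa2 was at 0.047 without passing. The simple epithelial keratins Krt18 (3.22), Krt8 (2.89), Krt19 (2.61) and Krt7 (2.34) led the trophoblast list, followed by the transcription factor gene Hand1 (0.98). The factor genes Elf5 (-0.25), Tfap2c (-0.22), Cdx2 (0.26) and Gata3 (0.52) did not pass. Differences above and below 0 numbered 13 and 4 on the trophoblast list, and 12 and 5 on the endoderm list. The mean over the 31 network members was 9.17 to 9.20 in overexpression and 9.15 to 9.20 in control, so these ranges overlapped. By role, the means of the core factors, broader regulators and surface proteins were lower in every overexpression array. That of the naive circuit was higher in every one, and those of the ES and germ line factors overlapped. These means were not centred on array medians, which ran lower in overexpression (5.54 to 5.59) than in control (5.60 to 5.62). Narrow gaps, such as that of the surface proteins (8.94 to 9.08 against 9.09 to 9.18), may not hold after centring. The 2-cell-like list, which marks a rare state of ES cell cultures, held 16 genes. Only 7 were measured, and Zscan4c, Zscan4d, Zscan4f and Dux were not among them. Of the 7, 6 fell, beside 3.25% of all genes. With genes below the median mean signal left out, 2 of the list remained and 1 fell. Eif1a did not pass, and the list's mean was 5.27 to 5.59 against 6.49 to 6.60. The part of these cell types and states in the falls of Fbxo15, Tdgf1, Rif1, Nanog and Sox2, or in the rises, was not tested.

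**Figure D5:**
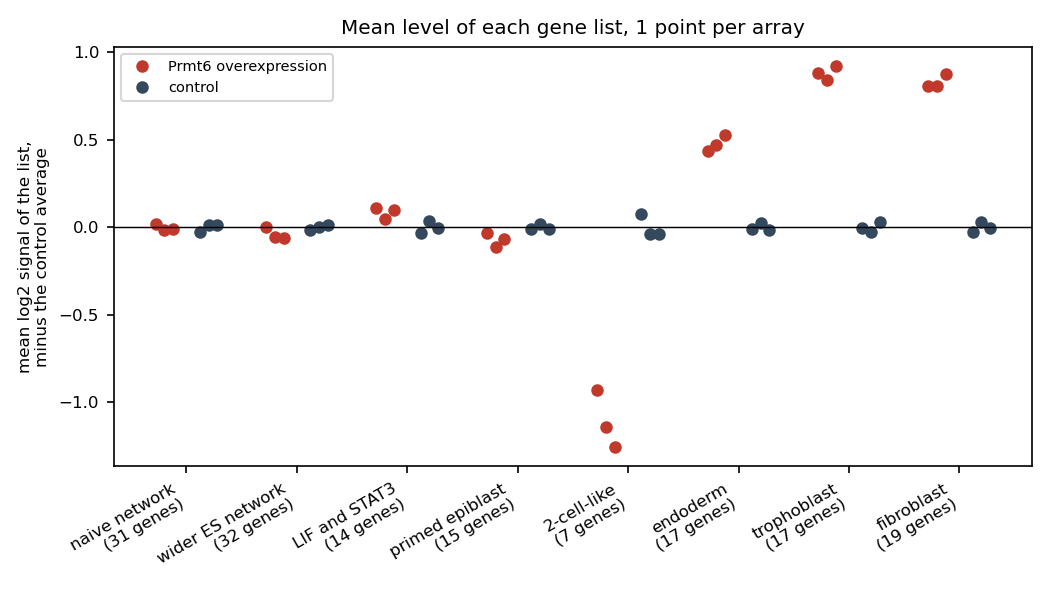
Mean log2 signal of each gene list in each array, minus the average of the 3 control arrays, with Prmt6 overexpression in red left of control in dark blue. The ranges of the 2 groups overlap for the naive network and the wider ES network. The fibroblast, trophoblast, endoderm and LIF and STAT3 lists lie higher in every overexpression array. The 2-cell-like and primed epiblast lists lie lower in every overexpression array. The means are not centred on array medians, which ran lower in overexpression. The ranges of the primed list are close (7.21 to 7.29 against 7.31 to 7.34) and may not stay apart after centring.

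The genes next to the members on the chromosome were read as well. Of 15 nearest measured protein-coding neighbours of the 8 called members, members left out, 1 rose and 0 fell by limma, beside 10.3% of all genes called. The 1 was Cyb5a, named here after its value was seen, which rose by 0.35 ± 0.076 (adjusted p = 0.0229) beside the falling Fbxo15, and that call was lost when control replicate 2 or 3 or overexpression replicate 2 was left out (adjusted p up to 0.101). Nanog lies beside Dppa3, a second member, which did not pass at 0.27, and beside Slc2a3, at 0.10. Tcl1 lies beside its relative Tcl1b4, which was at 0.010 (adjusted p = 0.968). Of 56 such neighbours of all measured members, 4 rose and 3 fell.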

How the data were processed

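RNA from 6 samples was hybridised to 1 Affymetrix array each, from 5 ug of total RNA per the labels' protocols. The authors deposited log2 signals made by RMA, per the submitters' processing notes, which equalizes array distributions and would largely remove a change shared by most genes. The sources used here give no RMA version or settings. Detection calls were not used, and precision is limited by the number of arrays.

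Of 35556 probe sets, 21789 had 1 symbol in the platform annotation, 1621 had several and 12146 were not named; the last 2 kinds were left out. Each of 19938 genes took its probe set with the highest mean. The 2 groups were compared in limma 3.58.1 (R 4.3.3), two-sided, without covariates or a filter, and adjusted over all genes by Benjamini-Hochberg. Differences are log2 ± SE, and 95% intervals are unadjusted. The procedure was tested on simulated data, in which far fewer genes changed than were called here. It recovered 3.2% of changes of 0.3 log2, 44.4% of those of 0.5 and 89.2% of those of 1. On average 2.96% of its calls were false. A change as small as 0.3 would thus mostly be missed at those settings. Figures used matplotlib 3.10.9.

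All 31 measured members and Prmt6 are named. From the other lists up to 6 genes past the threshold are named, largest change first; Tet1, Gata6 and genes named there without passing were chosen after their values were seen. The members, roles and lists were chosen with earlier results of these data known. Tried as alternatives were fits without each array in turn, a replicate block, filters on mean signal (30th percentile, median), median centring, quantile normalization, averaged or separate probe sets, a trended and robust prior, array weights and a threshold of 0.01.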

Additional observations from a re-analysis of the deposited data

How the results depend on the processing

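With all arrays, 3 members rose, 5 fell, 28 had an interval within 1.5-fold and the median difference was 0.0067. Members called higher numbered 5 with a trended, robust variance prior and 1 at a threshold of 0.01; members called lower numbered 1 with the replicate block and 1 at 0.01. The median was 0.053 with arrays centred on medians and -0.044 under quantile normalization. Centring moves all genes of an array alike, and the median over all genes was 0.047 there and 0.024 under quantile normalization. Leaving out 1 array gave 1 to 3 members higher, 1 to 4 lower, 27 to 29 within 1.5-fold and medians from -0.010 to 0.030. Pou5f1 passed with the trended prior (adjusted p = 0.0362), Klf2 and Gbx2 with that prior and both filters, Klf2 with centring (0.0426) and Gbx2 under quantile normalization (0.0357). The cause of the other shifts was not tested. Deviations of same-numbered arrays correlated at -0.019, -0.016 and -0.117, and those of different-numbered arrays at -0.100 to 0.114. The values show no signal shared by replicate number, but cannot tell whether samples were handled in pairs. The replicate block left 2 members higher and 1 lower. Over all genes, 1405 rose and 647 fell, and 1838 and 447 with centring. Rises numbered 862 and 898 without control replicates 1 and 3 and 765 at 0.01. Falls numbered 990 and 1079 with the filters, 1115 with the trended prior, 1098 with array weights, 383 with the replicate block, 219 at 0.01, 280, 321 and 297 without control replicates 1, 2 and 3, and 328 without overexpression replicate 2.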
